A study of Mus musculus with 8 samples.

Results

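The genes described here are 32 genes of de novo pyrimidine and purine synthesis, serine synthesis, the folate one-carbon cycle and the ATF4 response. They were taken by symbol from the 34478 genes of the deposited table, and all 32 were found and tested. They comprise 4 genes of pyrimidine synthesis, 2 of PRPP synthesis, 6 of IMP synthesis, 4 of the AMP and GMP branches, 3 of serine synthesis, 5 of the folate one-carbon cycle, 5 around ATF4 and 3 amino acid transporters. After 48 h of trametinib, an inhibitor of the kinase MEK, 24 of the 32 genes were lower and 3 were higher than with DMSO, the solvent, while 5 did not pass the test. The genes that fell were 22 enzymes of nucleotide, serine and folate metabolism and the transporters Slc7a5 and Slc1a5, and the 3 that rose were Ddit3, Trib3 and Chac1, stress genes that ATF4 is known to activate.

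RNA was sequenced from 4 primary murine PDAC cell lines, numbered #1, #3, #5 and #10, each once with DMSO and once with trametinib at the IC50 of that line, which gave 8 libraries. The labels do not give the dose of each line. All lines came from pancreatic tumors of a genetically engineered model whose alleles include Ptf1awt/Cre and Trp53loxP/loxP, in which Cre made from the Ptf1a locus, active in the pancreatic lineage, removes Trp53, so treated and control cells share the alleles of the model. The labels do not say whether each line came from a mouse of its own, and each line and treatment is represented by 1 library, so that the spread given here is that between lines. In each run of 4 values below, the lines stand in the order #1, #3, #5 and #10, and each value is a normalized count, a read count that the authors scaled so that libraries can be compared. Fold changes are differences of log2(normalized count + 1) between trametinib and DMSO, and a gene is called higher or lower when its adjusted p was under 0.05 in limma, in a model that blocks on the cell line. Coordinates refer to GRCm38, with genes as annotated in GENCODE M21.

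Cells make pyrimidines by building a ring that is then joined to ribose phosphate, and make purines by building the ring on ribose phosphate itself, in steps that use glutamine, glycine, aspartate and formyl groups carried by folate. Serine, made from an intermediate of glycolysis, gives glycine and the carbon that enters the folate cycle, so the pathways are linked. ATF4 is a transcription factor whose translation rises when the initiation factor eIF2 is phosphorylated under amino acid shortage or stress of the endoplasmic reticulum, and its known targets include genes of serine synthesis, the mitochondrial folate enzymes, amino acid transporters and stress genes. In tumor cells, nucleotide synthesis is also known to be driven by MYC and mTORC1, which lie downstream of the MAPK pathway.

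Promoters are shown first, because ATF4 with a C/EBP partner is known to bind TGATGNAA and MYC with MAX to bind CACGTG, and the members moved in opposite directions. RefSeq promoter windows (GRCm38.p6, 250 bases before to 50 bases after a start site) were at hand for 28 of the 32 members, in 31 windows. TGATGNAA, read on both strands, was in the windows of 4 members, Asns, Chac1, Prps1 and Trib3, and in 3.97% of all 32851 windows. CACGTG, which reads the same on both strands, was in those of 3 members, Atic, Impdh2 and Paics, and in 7.15% of all windows. No member had both. The 30 bases around each match follow, 5′ to 3′ on the strand of the gene, with the match in capitals. Of the members with TGATGNAA, Chac1 and Trib3 rose, Prps1 fell and Asns passed in neither direction. The members with CACGTG all fell, as did 22 of the 24 enzymes of nucleotide, serine and folate metabolism, most of them without a match. A match describes the letters of these windows and no binding was measured.
Chac1, chr2:119351038-119351067: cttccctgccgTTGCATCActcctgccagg
Trib3, chr2:152344028-152344057: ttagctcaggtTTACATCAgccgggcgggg
Asns, chr6:7693214-7693243: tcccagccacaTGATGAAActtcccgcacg
Prps1, chrX:140456422-140456451: ggctatctttgTGATGTAAaaagtgcttta
Impdh2, chr9:108560314-108560343: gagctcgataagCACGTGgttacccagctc
Atic, chr1:71557137-71557166: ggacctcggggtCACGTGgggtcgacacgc
Paics, chr5:76951087-76951116: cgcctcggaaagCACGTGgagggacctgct

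The whole windows of the 3 members that rose are given for comparison, since these genes moved together. Chac1 lies on the plus strand, Trib3 on the minus strand and Ddit3 on the plus strand. Capitals again mark TGATGNAA on either strand, and the window of Ddit3 holds neither motif within its 300 bases.
Chac1, chr2:119350992-119351291: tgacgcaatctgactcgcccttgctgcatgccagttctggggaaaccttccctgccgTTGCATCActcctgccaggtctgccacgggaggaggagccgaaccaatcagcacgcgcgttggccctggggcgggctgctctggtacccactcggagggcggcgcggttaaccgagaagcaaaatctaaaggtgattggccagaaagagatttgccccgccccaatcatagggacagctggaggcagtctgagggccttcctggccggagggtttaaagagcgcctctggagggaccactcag
Trib3, chr2:152344011-152344310: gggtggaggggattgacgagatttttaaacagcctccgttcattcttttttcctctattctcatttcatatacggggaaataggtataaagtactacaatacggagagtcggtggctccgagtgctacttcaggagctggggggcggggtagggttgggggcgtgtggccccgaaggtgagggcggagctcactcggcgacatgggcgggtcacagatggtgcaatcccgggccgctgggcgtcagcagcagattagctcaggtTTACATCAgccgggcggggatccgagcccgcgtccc
Ddit3, chr10:127290543-127290842: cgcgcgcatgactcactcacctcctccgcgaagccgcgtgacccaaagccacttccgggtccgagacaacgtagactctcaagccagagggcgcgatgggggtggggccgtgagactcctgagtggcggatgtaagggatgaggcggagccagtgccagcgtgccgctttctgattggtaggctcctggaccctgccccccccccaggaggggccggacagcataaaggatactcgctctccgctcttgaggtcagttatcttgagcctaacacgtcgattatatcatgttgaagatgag

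The libraries summed to 30680091 to 36385719 normalized counts, from about 29300000 to 46000000 reads as estimated from the spacing of low values, and the lowest value of any member, 86.0 for Chac1, stood far above the 2.33 to 3.72 that correspond to 3 reads. Of 10 genes known to follow MAPK signaling, 9 were lower with trametinib, where 25.6% of the 15888 genes tested were. The other gene, Epha4, was higher in 4 of 4 lines. It did not pass the test (log2 fold change 0.87, SE 0.31, adjusted p = 0.05 in limma). The lines carried epithelial transcripts, with 7 markers summing to 220845 to 347572 normalized counts with DMSO and 113091 to 221928 with trametinib, although Epcam was listed at 0 in both libraries of lines #1, #5 and #10. Sums of 12 fibroblast markers were 2619 to 3061 and 2496 to 3252 (Lum at 0 in every library), those of 7 leukocyte markers 150.1 to 241 and 236 to 516, those of 4 endothelial markers 30.9 to 54.6 and 62.7 to 831, and those of 6 acinar markers 55.8 to 280.2 and 22.4 to 154 (Cpa1 at 0 in every library). Fbln1, most of the fibroblast sum, changed by -0.60 ± 0.12 (log2 fold change ± SE). The fibroblast collagen Col1a1 rose by 3.60 ± 0.42, the macrophage receptor Csf1r by 2.83 ± 0.31 and the endothelial receptor Tek by 3.77 ± 0.52. With trametinib, Tek was at 805 in line #3 and Csf1r at 340 in line #10, most of the highest endothelial and leukocyte sums. The other markers tested for these 3 cell types passed in neither direction, 4 of 6 for fibroblasts, 3 of 4 for leukocytes and 2 of 3 for endothelium. Among epithelial markers Cldn4 rose by 4.61 ± 0.55, and Krt8, Krt18 and Krt7 changed by -0.74 ± 0.22, -0.82 ± 0.16 and -0.96 ± 0.23. The adjusted p of these 8 genes lay between 0.0007 and 0.028 in limma. Krt19 was lower too (-0.66 ± 0.20, adjusted p = 0.029 in limma), while Cdh1 did not pass (-0.02 ± 0.11, adjusted p = 0.88 in limma). Of the 2 acinar markers tested, Cela1 was lower (-0.73 ± 0.21, adjusted p = 0.026 in limma) and Bhlha15 did not pass (adjusted p = 0.94 in limma). Each of 12 proliferation genes was lower with trametinib, with a median log2 fold change of -1.52. The part of these changes in the results below was not tested. In bulk RNA, fewer cells that express a gene and less RNA of it per cell cannot be told apart.

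Most of the enzymes were lower with trametinib and the stress genes were higher. Of the 32 members, 24 were lower, where 25.6% of the 15888 genes tested were, and 3 were higher, where 27.3% were (limma). All 4 trametinib libraries lay below all 4 DMSO libraries for 19 members, against 16.2% of all genes tested, and above them for 3 members, against 15.1%. The other 10 members had groups that overlapped. Within lines, 25 members were lower in 4 of 4 lines, 4 were higher in 4 of 4 lines, and Impdh1, Psph and Asns went in both directions. The median log2 fold change was -0.93 over the members and 0.07 over all genes tested. Among the 24 enzymes of nucleotide, serine and folate metabolism, 22 were lower and none was higher in limma (23 lower and none higher at an unadjusted p under 0.05), and Impdh1 and Psph did not pass the test. Of the members called, 15 fell and 3 rose by at least 1 on the log2 scale, and the other 9 fell by less. Counted together, the members made up 0.51% to 0.57% of a library's normalized counts with DMSO and 0.22% to 0.39% with trametinib. The median of all genes depends on the scaling. It was 0.20 when libraries were set to equal totals, with 3284 genes lower and 5315 higher in place of 4075 and 4341, and -0.03 with quantile normalization. With either scaling 21 members were lower and 4 higher.

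**Figure D1:**
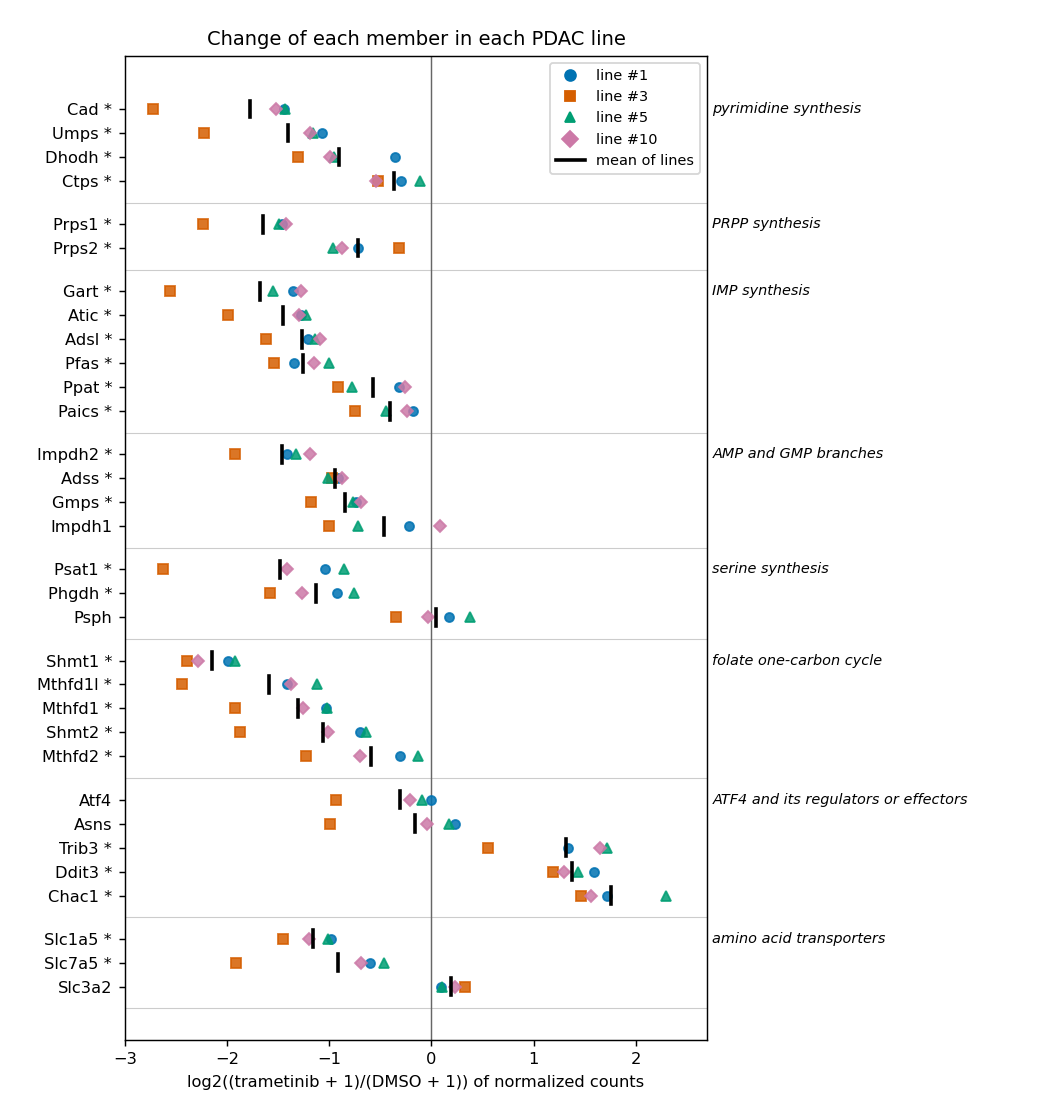
Change of each of the 32 members in each line, as log2((trametinib + 1)/(DMSO + 1)) of normalized counts, ordered by role. Symbols are the 4 lines, black bars their mean, and an asterisk marks an adjusted p under 0.05 in limma; most enzymes lie left of 0 in every line, line #3 is the lowest for 28 members, and Trib3, Ddit3 and Chac1 lie right of 0 in every line.

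All 4 genes of pyrimidine synthesis were lower with trametinib, and the enzymes at the start of the pathway and at UMP fell more than Ctps at its end. Cad (chr5:31054780-31078479, plus strand), which joins the enzymes that build dihydroorotate in 1 protein, stood at 13633, 16034, 16131 and 15410 normalized counts with DMSO and 5025, 2434, 5978 and 5359 with trametinib. All trametinib libraries lay below all DMSO libraries, and Cad was 3.43-fold lower (log2 fold change -1.78, SE 0.22, adjusted p = 0.0011 in limma). Line #3 had one of the higher DMSO values and the lowest trametinib value. Umps (chr16:33954782-33967038, minus strand), which turns orotate into UMP, was at 5399, 4138, 6326 and 5565 with DMSO and 2575, 887, 2836 and 2449 with trametinib. Its groups did not overlap and it was 2.65-fold lower (log2 fold change -1.41, SE 0.20, adjusted p = 0.0015 in limma). Dhodh, the mitochondrial enzyme that oxidizes dihydroorotate, ranged over 817 to 1137 with DMSO and 459.9 to 638 with trametinib, again without overlap (log2 fold change -0.90, SE 0.16, adjusted p = 0.0039 in limma). Ctps (chr4:120539868-120570276, minus strand), which makes CTP from UTP, was at 7356, 4666, 7209 and 7434 with DMSO and 5995, 3251, 6654 and 5113 with trametinib. It fell in 4 of 4 lines, but its groups overlapped, because line #3 was at 4666 with DMSO, under the trametinib values of lines #1, #5 and #10 (log2 fold change -0.37, SE 0.10, adjusted p = 0.02 in limma). Without the block for the cell line the adjusted p of Ctps was 0.3 in limma, and it passed the test neither without line #1 nor without line #10 (0.056 and 0.097 in limma).

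Both genes for the synthesis of PRPP, the activated ribose phosphate from which purines, pyrimidines and NAD are made, were lower. Prps1 (chrX:140456613-140476140, plus strand) was at 2622, 1639, 2073 and 1682 with DMSO and 949, 348, 739 and 627 with trametinib. The groups were apart by a wide margin and Prps1 was 3.14-fold lower (log2 fold change -1.65, SE 0.16, adjusted p = 0.00049 in limma). Prps2 (chrX:167346322-167382749, minus strand) was at 1932, 1672, 1600 and 1614 with DMSO and 1174, 1340, 820.0 and 880.2 with trametinib. It was 1.65-fold lower (log2 fold change -0.72, SE 0.13, adjusted p = 0.0035 in limma), and it was one of only 4 members whose lowest change was not in line #3, where it fell least. Of the 31-base stretches of Prps1 transcripts, 18.5% are also in Prps1l3, a copy that was counted separately at 791.0 to 1891 normalized counts, so reads may have been split between them. Prps1l3 was lower as well (log2 fold change -0.60, SE 0.10, adjusted p = 0.0033 in limma), and the sum of both changed by -1.07 ± 0.24 (mean log2 fold change ± SD, n = 4).

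The 6 genes that build IMP, the purine from which AMP and GMP are made, were all lower. Gart, Pfas, Adsl and Atic fell by more than 1 on the log2 scale, and Ppat and Paics by less. Gart (chr16:91621186-91646952, minus strand), a protein that carries out several early steps and takes a formyl group from folate, was at 2031, 1482, 2232 and 2129 with DMSO and 796, 252, 764 and 879.5 with trametinib. It was 3.21-fold lower, the largest change of the 6 (log2 fold change -1.68, SE 0.22, adjusted p = 0.0012 in limma), with no overlap of the groups, and line #3 was the lowest in both. The exons of Gart overlap those of Gm15964 on the opposite strand over 19.7% of their bases. Pfas (chr11:68985697-69008460, minus strand), which adds an amide nitrogen from glutamine, was at 4715, 5952, 5571 and 4745 with DMSO and 1856, 2040, 2785 and 2144 with trametinib. Its groups did not overlap, and it was 2.39-fold lower (log2 fold change -1.26, SE 0.11, adjusted p = 0.00038 in limma). Adsl (chr15:80948490-80970946, plus strand), which releases fumarate here and again on the way to AMP, was at 3881, 3975, 4959 and 4473 with DMSO and 1679, 1293, 2255 and 2102 with trametinib. Its fall was of the same size (log2 fold change -1.26, SE 0.11, adjusted p = 0.0004 in limma). Atic (chr1:71557150-71579631, plus strand), which adds the last formyl group and closes the ring, was at 10549, 10420, 10984 and 11210 with DMSO and 4354, 2614, 4708 and 4565 with trametinib. With DMSO its values lay within 1.08-fold of each other, among the closest of all members, and with trametinib it was 2.73-fold lower (log2 fold change -1.45, SE 0.14, adjusted p = 0.00056 in limma).

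Ppat, the enzyme that commits PRPP to purines, and Paics, which carries out the steps just before Adsl, are neighbors on chromosome 5 on opposite strands. Ppat ranged over 3355 to 3756 with DMSO and 1778 to 3015 with trametinib, without overlap (log2 fold change -0.57, SE 0.13, adjusted p = 0.011 in limma). Paics (chr5:76951307-76967509, plus strand) was at 9683, 8840, 11576 and 11789 with DMSO and 8569, 5278, 8528 and 9963 with trametinib. It fell in 4 of 4 lines, but the trametinib value of line #10 lay above the DMSO values of lines #1 and #3 (log2 fold change -0.40, SE 0.11, adjusted p = 0.023 in limma). Exons of the 2 genes overlap each other over 6.15% of the bases of Ppat and 8.67% of those of Paics. Paics did not pass the test without the block (adjusted p = 0.18 in limma), and without line #5 neither did Paics (0.084 in limma) or Ppat (0.051 in limma).

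In the branches from IMP to AMP and GMP, 3 of 4 genes were lower. Impdh2 (chr9:108560286-108565584, plus strand), an isoenzyme of IMP dehydrogenase, the rate-limiting step toward GMP, was at 12376, 9357, 12762 and 11013 with DMSO and 4660, 2476, 5096 and 4827 with trametinib. It was 2.75-fold lower without overlap (log2 fold change -1.46, SE 0.13, adjusted p = 0.00041 in limma). Impdh2 shares 43.2% of its 31-base stretches with the pseudogene Impdh2-ps, which was counted at 0 to 12.4 normalized counts. Impdh1 (chr6:29200434-29216364, minus strand), the other isoenzyme, was at 4565, 4488, 4347 and 3511 with DMSO and 3915, 2241, 2638 and 3714 with trametinib. It was lower in 3 lines and slightly higher in line #10, and did not pass the test (log2 fold change -0.47, SE 0.18, adjusted p = 0.065 in limma); without line #10 it passed, at -0.65 and an adjusted p of 0.027 in limma, while it was -0.29 without line #3 and -0.38 without line #5 (adjusted p = 0.15 and 0.2 in limma). Gmps, which makes GMP, ranged over 5718 to 8976 with DMSO and 2529 to 5570 with trametinib without overlap (log2 fold change -0.84, SE 0.11, adjusted p = 0.0011 in limma). Adss, which leads IMP toward AMP, had the least spread of all members with DMSO relative to its mean (SD 3.00% of the mean), at 7899 ± 237 with DMSO and 4118 ± 179 with trametinib (mean ± SD, n = 4), and fell by nearly the same amount in each line (log2 fold change -0.94, SE 0.08, adjusted p = 0.00033 in limma). Its changes in the 4 lines were -0.91, -0.97, -1.01 and -0.87.

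The serine pathway split between its enzymes. Phgdh and Psat1, the enzymes of its first steps, fell, and Psph, the phosphatase of the last step, gave values close together with both treatments. Phgdh (chr3:98313170-98339990, minus strand), which draws 3-phosphoglycerate out of glycolysis, was at 23556, 14917, 21497 and 30447 with DMSO and 12452, 5006, 12741 and 12645 with trametinib. Line #3 was the lowest with either treatment, and Phgdh was 2.19-fold lower without overlap (log2 fold change -1.13, SE 0.15, adjusted p = 0.0012 in limma). Psat1 (chr19:15904678-15947337, minus strand), which transfers an amino group from glutamate, was at 11474, 8801, 11700 and 11503 with DMSO and 5565, 1425, 6461 and 4316 with trametinib. Its trametinib value in line #3 was far below those of the other lines, and it was 2.80-fold lower (log2 fold change -1.49, SE 0.28, adjusted p = 0.0044 in limma). Psph (chr5:129765558-129787449, minus strand) was at 721, 873, 759.9 and 938 with DMSO and 816, 686, 986 and 916 with trametinib. Lines #1 and #5 were higher and lines #3 and #10 lower with trametinib, and the mean change was near 0 (log2 fold change 0.04, SE 0.14, adjusted p = 0.81 in limma). Phgdh shares 55.8% of its 31-base stretches with other transcripts, mostly the pseudogene Gm7901 at 0 to 14.9 normalized counts, and the exons of Psph overlap those of Cct6a on the opposite strand over 10.4% of their bases.

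All 5 folate enzymes were lower, and Shmt1 had the largest change of all 32 members. Shmt1 (chr11:60788104-60811718, minus strand), the cytosolic enzyme that turns serine into glycine and passes the carbon to folate, was at 2122, 3408, 2624 and 2840 with DMSO and 533, 649, 693 and 582 with trametinib. The trametinib values lay far below the DMSO values, and Shmt1 was 4.43-fold lower (log2 fold change -2.15, SE 0.11, adjusted p = 9.9e-05 in limma). Shmt2 (chr10:127517123-127522444, minus strand), its mitochondrial counterpart, was at 7313, 6728, 8709 and 5547 with DMSO and 4495, 1831, 5591 and 2759 with trametinib. It fell in 4 of 4 lines, but the groups overlapped, since line #5 with trametinib stayed above the lowest DMSO value (log2 fold change -1.06, SE 0.20, adjusted p = 0.0052 in limma). Mthfd1 (chr12:76255298-76319803, plus strand), the cytosolic protein that makes the formyl folate used for purines, was at 7088, 5427, 7410 and 7237 with DMSO and 3460, 1428, 3654 and 3025 with trametinib. It was 2.48-fold lower without overlap (log2 fold change -1.31, SE 0.16, adjusted p = 0.001 in limma). Mthfd1l (chr10:3973118-4167081, plus strand), which releases formate from mitochondria, was at 3100, 2470, 3691 and 2267 with DMSO and 1167, 455, 1697 and 875 with trametinib. It was 3.00-fold lower, the second largest fall of the 5 (log2 fold change -1.58, SE 0.21, adjusted p = 0.0013 in limma). Mthfd2 (chr6:83305691-83325908, minus strand), the mitochondrial dehydrogenase, was at 3521, 2701, 4440 and 3238 with DMSO and 2844, 1152, 4053 and 1993 with trametinib. It had the smallest fall of the folate enzymes, and its groups overlapped (log2 fold change -0.59, SE 0.18, adjusted p = 0.029 in limma). Without the block the adjusted p of Mthfd2 was 0.24 in limma, without line #10 it was 0.094 in limma, and without line #3 its change was -0.38.

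**Figure D2:**
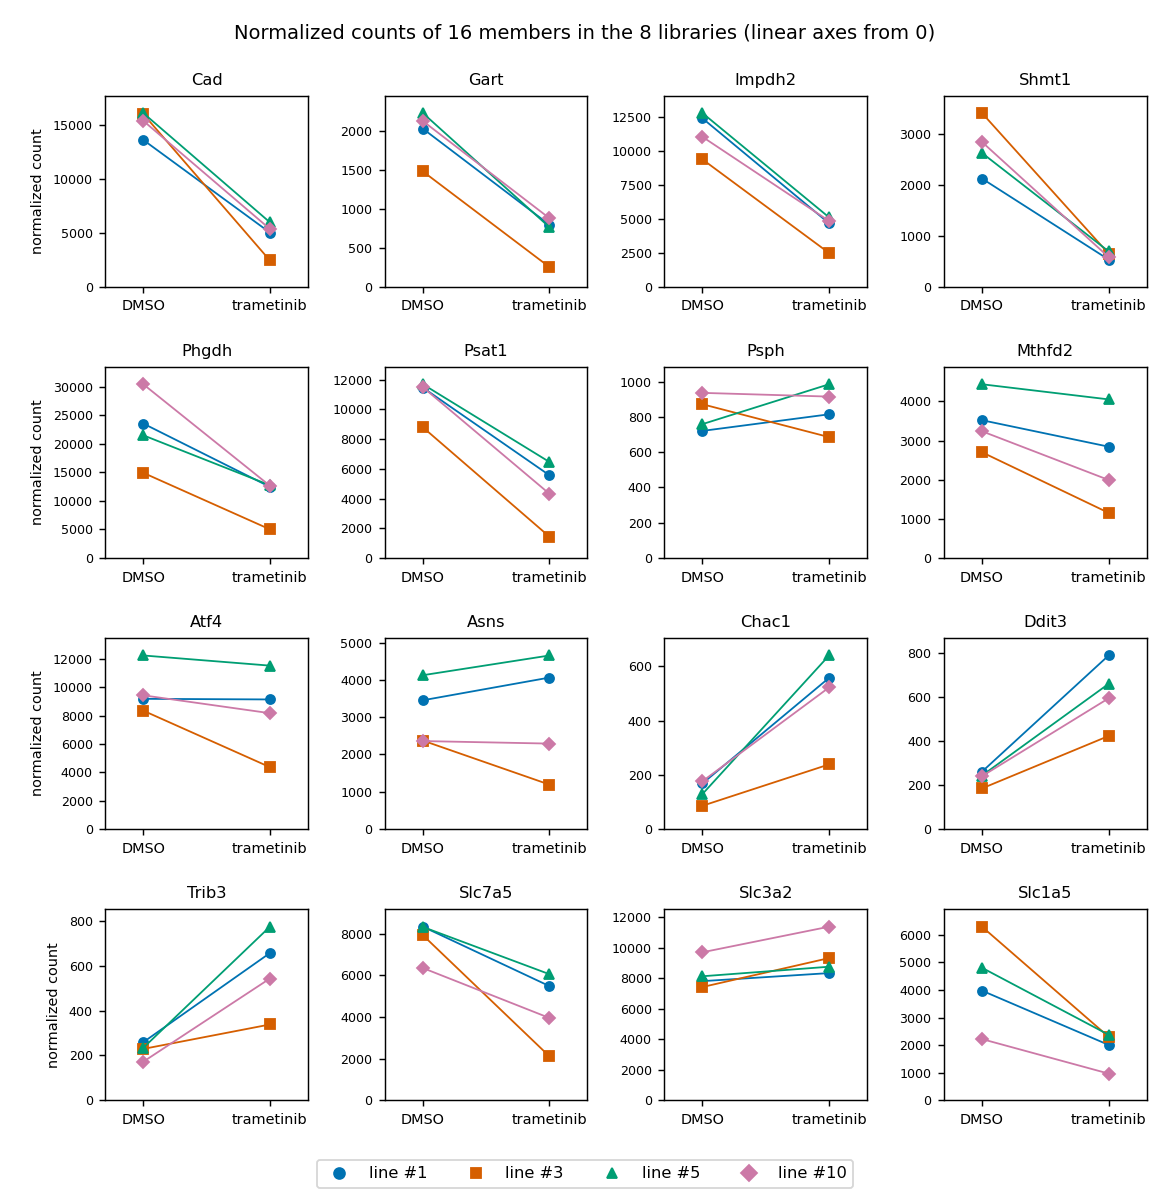
Normalized counts of 16 members in the 8 libraries, with DMSO on the left and trametinib on the right of each panel and a line joining the libraries of each cell line. Each vertical axis is linear and starts at 0; Cad, Gart, Impdh2, Shmt1, Phgdh and Psat1 fall in every line, Chac1, Ddit3 and Trib3 rise in every line, and Psph and Asns go both ways.

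Around ATF4, its stress targets rose while ATF4 itself and Asns did not pass the test. Chac1 (chr2:119351229-119354381, plus strand), an enzyme that breaks down glutathione, was at 168, 86.0, 129 and 176 normalized counts with DMSO and 557, 238, 639.8 and 522 with trametinib. All trametinib values lay above all DMSO values and Chac1 was 3.39-fold higher, the largest rise of the members (log2 fold change 1.76, SE 0.18, adjusted p = 0.0006 in limma). Ddit3 (chr10:127290774-127296288, plus strand), the transcription factor CHOP, was at 260.4, 185, 243 and 240.1 with DMSO and 788, 422, 659 and 593 with trametinib. Its groups did not overlap and it was 2.60-fold higher (log2 fold change 1.38, SE 0.13, adjusted p = 0.00047 in limma). Trib3 (chr2:152337422-152344032, minus strand), a pseudokinase induced by ATF4 and CHOP, was at 259, 229, 234 and 172 with DMSO and 656, 338, 774 and 543 with trametinib. It was 2.49-fold higher (log2 fold change 1.32, SE 0.21, adjusted p = 0.0026 in limma), with the smallest rise in line #3, at 0.56, against 1.34 to 1.72 in the other lines. The symbol Ddit3 belongs to 2 gene models of GENCODE, and 4.73% of its exon bases overlap genes on the opposite strand.

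Atf4 itself (chr15:80255184-80257541, plus strand) was at 9196, 8361, 12257 and 9444 with DMSO and 9153, 4374, 11540 and 8183 with trametinib. Its changes in the 4 lines were -0.01, -0.93, -0.09 and -0.21, near 0 in line #1 and lowest in line #3 (log2 fold change -0.31, SE 0.16, adjusted p = 0.15 in limma), and the mean change was -0.10 without line #3. Asns (chr6:7675169-7693254, minus strand), which makes asparagine and is a known ATF4 target, was at 3453, 2373, 4125 and 2360 with DMSO and 4062, 1192, 4654 and 2292 with trametinib. Lines #1 and #5 gave a higher value with trametinib, and lines #3 and #10 a lower one (log2 fold change -0.16, SE 0.20, adjusted p = 0.54 in limma), and without line #3 its mean change was 0.12. The groups overlapped for both genes. RNA does not show the translation of ATF4, and its protein was not measured in these data.

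Of the 3 amino acid transporters, 2 were lower. Slc1a5 (chr7:16781340-16798274, plus strand), which takes up glutamine, was at 3974, 6292, 4803 and 2219 with DMSO and 2008, 2302, 2376 and 969 with trametinib. It fell in 4 of 4 lines and was 2.24-fold lower (log2 fold change -1.16, SE 0.10, adjusted p = 0.00043 in limma). Its groups overlapped because the lines differed, with a 2.84-fold range with DMSO, the widest of the members. Slc7a5, the light chain of the transporter LAT1 for large neutral amino acids, ranged over 6349 to 8332 with DMSO and 2108 to 6052 with trametinib, without overlap (log2 fold change -0.91, SE 0.24, adjusted p = 0.016 in limma). Its change was -0.58 without line #3, and the adjusted p without the block was 0.052 in limma. Slc3a2 (chr19:8706882-8723369, minus strand), the heavy chain that carries LAT1 to the membrane, was at 7822, 7436, 8142 and 9716 with DMSO and 8350, 9335, 8768 and 11396 with trametinib. It was higher in 4 of 4 lines by a small amount and did not pass the test (log2 fold change 0.19, SE 0.08, adjusted p = 0.098 in limma). With libraries set to equal totals, Slc3a2 passed as higher, at 0.32 and an adjusted p of 0.018 in limma.

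Levels were compared between genes per kilobase of merged exons, as mean normalized counts with DMSO over the 4 lines. Merged exons join all annotated transcripts of a gene and can be longer than the transcript expressed. They came to 2486 bases for Phgdh and 7985 for Atic, so the order below depends on the annotation. Before division, Atic was at 10791 normalized counts and Atf4 at 9815. Phgdh was the highest, at 9093 per kb, followed by Atf4 at 4162, Impdh2 at 3697 and Paics at 3336. Among the enzymes, Psph at 190.1 and Dhodh at 159 were the lowest, and the 3 genes that rose were lower still, with Ddit3 at 135, Trib3 at 105 and Chac1 at 85.4 per kb. With trametinib, Chac1 was at 299, Ddit3 at 359 and Trib3 at 272 per kb, while Phgdh was at 4309 and Shmt1, from 708, at 158. With DMSO the lines were alike for most members, since for 29 of 32 the highest line was less than 2 times the lowest.

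For most members the lowest change was in line #3. The median log2 fold change of the members was -0.73 in line #1, -1.38 in line #3, -0.81 in line #5 and -0.93 in line #10. Line #3 held the lowest change for 28 of 32 members, as it was for 37.5% of all genes tested and for 67.9% of the genes called lower. The 12 proliferation genes were all lowest in line #3 too, with medians of -1.29, -2.58, -1.05 and -1.31 in the 4 lines. The part of proliferation in the members' changes was not tested. Without line #3, the members' count stayed at 24 lower and 3 higher, and their median was -0.82.

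Isoenzymes of the same step were compared by the difference of their changes in each line, with an exact test that 4 lines cannot bring under 0.05. The log2 fold change of Impdh1 lay above that of Impdh2 in each line, by 0.99 ± 0.30 (mean ± SD, n = 4), and the ratio of Impdh1 to Impdh2 normalized counts was 0.319 to 0.480 with DMSO and 0.518 to 0.905 with trametinib. Prps1 fell by more than Prps2 in each line, by -0.93 ± 0.66, with -1.91 in line #3, -0.75 to -0.52 in the other lines and a mean of -0.61 without line #3. This difference rests on counting Prps1 apart from its copy Prps1l3. With both summed, an alternative added after the data were seen, it was -0.35 ± 0.50, at -0.21, -1.09, -0.11 and 0.02 in the 4 lines (p = 0.25, exact permutation test), so that it was near 0 in line #10 and mostly from line #3. Shmt1 fell by more than Shmt2, by -1.09 ± 0.38, and here line #3 had the smallest difference, -0.51. Mitochondrial Mthfd2 fell by less than cytosolic Mthfd1, by 0.72 ± 0.14. Each of the 4 differences, with Prps1 as counted without its copy, had the same sign in 4 of 4 lines, and the exact sign-flip permutation test, two-sided, gave p = 0.13 for each, the smallest that 4 lines allow, and 0.13 after Benjamini-Hochberg adjustment over the 4 pairs. Slc7a5 and its partner Slc3a2, a pair described after the values were seen and not tested, differed by -1.10 ± 0.77. The difference was -2.24 in line #3 and smaller in lines #1, #5 and #10, at -0.70, -0.57 and -0.91.

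**Figure D3:**
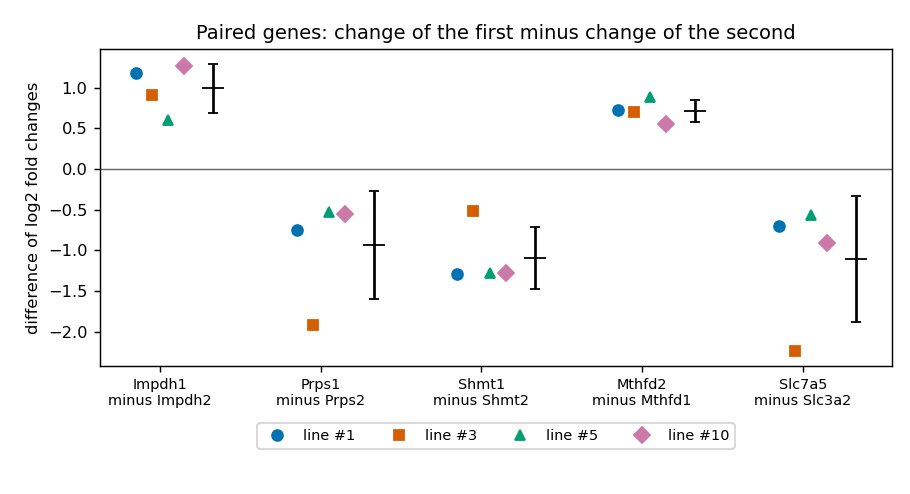
Difference between the log2 fold changes of paired genes, the first minus the second, in each of the 4 lines, with the mean and SD over lines as a black bar at the right of each pair. Impdh1 minus Impdh2 and Mthfd2 minus Mthfd1 are above 0 in every line, and the other 3 pairs are below 0 in every line, Prps1 being counted here without its copy Prps1l3.

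Other genes of the same pathways, taken as 9 lists by function, moved in both directions. Of 139 genes tested, 53 were lower and 32 higher, with a median log2 fold change of -0.20 (limma, against 25.6% lower and 27.3% higher over all genes). For nucleotide salvage and kinases, 8 of 18 were lower and 4 higher, with a median of -0.28. The uridine kinase Uck2 and the uridine phosphorylase Upp1 changed by -1.12 ± 0.15 and -1.89 ± 0.42 (log2 fold change ± SE), and the mitochondrial adenylate kinase Ak4 by -2.24 ± 0.54, while Uckl1, Ak1 and the mitochondrial thymidine kinase Tk2 rose by 0.96 ± 0.10, 1.91 ± 0.39 and 0.67 ± 0.15. These 6 had adjusted p between 0.00071 and 0.013 in limma. Of 13 genes of nucleotide breakdown, 3 were lower and 3 higher, with a median of -0.09. Cytidine deaminase Cda changed by -1.46 ± 0.21, the AMP deaminase Ampd2 by -0.70 ± 0.08 and Nudt1, which clears oxidized nucleotides, by -0.60 ± 0.12, while the ecto-nucleotidase Nt5e and the AMP deaminase Ampd3 rose by 1.19 ± 0.15 and 2.01 ± 0.17 (adjusted p between 0.00038 and 0.0066 in limma). Xdh, xanthine dehydrogenase, was called higher (adjusted p = 0.03 in limma), but it was listed at 0 in 3 DMSO libraries and in 1 trametinib library, so no fold is given. Without the block 1 gene of this list was higher.

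Of 22 genes of the folate and methionine cycle, 11 were lower and 7 higher, with a median of -0.52. Tyms, which makes thymidylate, changed by -1.63 ± 0.21 and Ahcy, which clears S-adenosylhomocysteine, by -1.58 ± 0.15 (log2 fold change ± SE). In the other direction, the folate dehydrogenases Aldh1l1 and Aldh1l2, which oxidize formyl folate, rose by 1.92 ± 0.16 and 1.17 ± 0.27. The adjusted p of these 4 lay between 0.00037 and 0.011 in limma, and without the block 4 genes of the list were higher. Of 16 other genes of amino acid synthesis, 9 were lower and 3 higher, with a median of -0.42. Cth and Cbs of cysteine synthesis changed by -1.81 ± 0.17 and -0.87 ± 0.24 and the transaminase Bcat1 by -1.15 ± 0.15, while Glul, which makes glutamine, Pycr1, which makes proline, and the alanine transaminase Gpt2 rose by 1.04 ± 0.18, 0.95 ± 0.19 and 0.69 ± 0.15 (adjusted p between 0.00047 and 0.02 in limma).

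Known ATF4 targets outside the members included stress genes that rose. Of 15 transcription factors and stress genes, 8 were higher and 1 was lower, with a median of 0.59. Atf3, a stress transcription factor, was at 308, 171, 317 and 321 with DMSO and 1309, 1199, 1707 and 1599 with trametinib. Its groups did not overlap (log2 fold change 2.41, SE 0.14, adjusted p = 0.00015 in limma). Nupr1 rose by 2.66 ± 0.19 and Ddit4, an inhibitor of mTORC1, by 1.49 ± 0.29 (log2 fold change ± SE), and Stc2 was the gene that fell, by -1.31 ± 0.25 (adjusted p between 0.00023 and 0.0054 in limma). Without the block, 5 genes of this list were higher in limma and Stc2 did not pass. Of 7 amino acid transporters, 2 were higher and 1 was lower, with a median of 0.10. Slc7a11, the cystine transporter, was at 2074, 3717, 1919 and 3047 with DMSO and 716, 667, 833 and 641 with trametinib. It fell in every line (log2 fold change -1.86, SE 0.22, adjusted p = 0.00086 in limma), while Slc7a3 and Slc38a1 rose by 0.94 ± 0.16 and 0.25 ± 0.08 (adjusted p = 0.0032 and 0.038 in limma). Without line #1, #5 or #10, 1 transporter of this list was higher, and without the block none was (limma). Of 20 cytosolic tRNA synthetases, 8 were lower and none was higher in limma (2 at an unadjusted p under 0.05), with a median of -0.33 and with Vars, Farsb and Kars lowest at -1.37 ± 0.23, -0.94 ± 0.11 and -0.92 ± 0.11 (adjusted p between 0.00093 and 0.003 in limma). The tRNA exporter Xpot, in the same list, changed by -0.84 ± 0.14 (adjusted p = 0.0027 in limma). With libraries set to equal totals 2 genes of this list were higher, and without line #3 there was 1.

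Upstream of ATF4, the kinase PERK, encoded by Eif2ak3, was the 1 gene of 11 eIF2 kinases and subunits of eIF2 and eIF2B that rose, and 6 were lower, with a median of -0.51. Eif2ak3 was at 1048, 1101, 1316 and 704 with DMSO and 5533, 4572, 5961 and 2536 with trametinib. Its groups were far apart (log2 fold change 2.12, SE 0.11, adjusted p = 9.7e-05 in limma). Eif2s1, the subunit whose phosphorylation favors ATF4 translation, changed by -1.05 ± 0.11 (log2 fold change ± SE), and Eif2b3 and Eif2b1 by -0.87 ± 0.12 and -0.82 ± 0.11 (adjusted p between 0.0006 and 0.0017 in limma). With libraries set to equal totals, and likewise without line #3, 3 genes of this list were higher. Of 16 genes of the MYC network and mTORC1, 5 were lower and 4 higher, with a median of -0.09. Myc was at 9547, 6413, 11238 and 8084 with DMSO and 5085, 3036, 5652 and 3917 with trametinib. It fell in every line without overlap (log2 fold change -1.01, SE 0.08, adjusted p = 0.00031 in limma). Its partner Max changed by -0.41 ± 0.11, and Mycn and Mycl rose by 1.60 ± 0.28 and 1.58 ± 0.15. The MYC antagonists went in both directions, with Mxd3 at -0.89 ± 0.23 and Mxd4 at 2.94 ± 0.11. The adjusted p of these genes lay between 5.7e-05 and 0.017 in limma. The antagonists Mxd1 and Mxi1 did not pass (adjusted p = 0.39 and 0.056 in limma). Without line #5 there were 2 lower genes in this list, without line #10 there were 3, with libraries set to equal totals there were 2, and without the block there was 1. Tsc2, an inhibitor of mTORC1 that most cells express, was listed at 0 in 7 of 8 libraries.

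**Figure D4:**
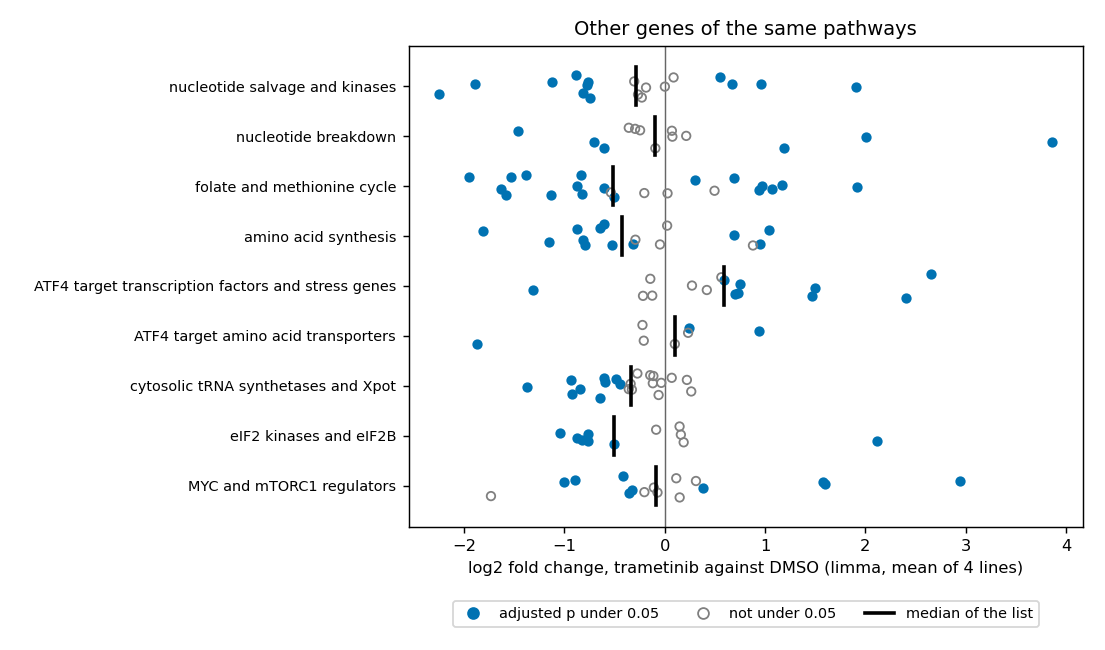
Log2 fold change, mean of the 4 lines in limma, of the other pathway genes in 9 lists, with filled points for an adjusted p under 0.05, open points for the rest and a black bar for the median of each list. The transcription factors and stress genes are the list with the highest median, at 0.59, and the tRNA synthetases with Xpot have no filled point right of 0.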

How the data were processed

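RNA was isolated from 4 primary murine PDAC lines after 48 h with DMSO or trametinib, and polyA libraries were made with a stranded kit. The authors deposited 1 table of normalized counts per gene, here treated as a signal scaled between libraries, in 8 columns, all of which were used. The processing notes of the submitters name CASAVA 2.17, Salmon 0.12, DESeq2 1.18 and the build mm10, without their order or roles, and the strand setting of the counting is not given in the sources used here. Low values were spaced by a common step in each library, from which depth was estimated, but 40.6% to 62.5% of the values under 20 steps lay within 0.02 steps of a whole multiple, too few to recover whole reads, and no count test was run. Some genes are listed at 0 in libraries where related lines express them, and a 0 is reported as listed.

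Genes with a mean of at least 10 (15888) were tested as log2(normalized count + 1) with limma 3.58.1 (R 4.3.3; lmFit and eBayes with trend), a block for the cell line, and p adjusted by Benjamini-Hochberg over all genes tested, at 0.05. The pseudocount makes folds of low genes too small. Both libraries of a line carry its number in the labels, which pairs them; across genes, deviations from the treatment means correlated at 0.63 to 0.72 within lines. On simulated data the fit recovered 188 of 197 changed genes among 15922, 89 of 98 at 2-fold and 99 of 99 at 4-fold, and called 3 unchanged genes. The simulation used a fixed noise level, few changed genes and the same change in every line. In the data the changes differed between lines, with an SD of 0.63 for Cad and 0.80 for Psat1 on the log2 scale. The simulated counts therefore check the fit and do not give its error rates on these data. Paired genes were compared by an exact sign-flip permutation test over the 4 lines.

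The members, the lists and the tests were chosen with earlier results of these data known. Every member is named, with values per library where the adjusted p was under 0.05 and the change at least 1 on the log2 scale, where lines disagreed in direction, and for the extremes of each role. From each other list, up to 3 genes with the largest rise and 3 with the largest fall among those called are named, except some items that are not reported here. The 30-base windows of Asns, Atic, Impdh2 and Paics and the whole windows of 3 genes were added after the values were seen. Positions and shared 31-base stretches are from GENCODE M21 (GRCm38), matched by symbol, and promoters from RefSeq (GRCm38.p6), with positions inside a window read on the strand of the gene. Alternatives were pseudocounts of 0.1 and 5, equal totals, quantile normalization, median centring, no filter, a filter at 50, no block, other eBayes settings and leaving out each line. Tables were made in Python 3.11.15 with pandas 2.3.3, numpy 2.4.6 and scipy 1.17.1, and plots with matplotlib 3.10.9.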

Additional observations from a re-analysis of the deposited data

Results flagged for a closer look

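Line #3 stood apart from the other 3 lines, by Dixon's test for a single outlying value, in 12 of the 96 sets of 4 values that the members gave (counts with DMSO, counts with trametinib and log2 fold changes). Chance gives such a value in about 1 of 20 sets, or 4.8 of 96, and the sets are not independent, since they share libraries. In each of the 12, line #3 was the lowest. For log2 fold changes, line #3 was at -2.72 for Cad, against -1.52 to -1.43 in the other lines. Umps was at -2.22, against -1.18 to -1.07, and Prps1 at -2.23, against -1.49 to -1.42. For Atic the value was -1.99, against -1.30 to -1.22, for Gmps -1.18, against -0.76 to -0.69, and for Slc7a5 -1.91, against -0.68 to -0.46. Among the normalized counts with trametinib, line #3 had 2614 for Atic, where the other lines had 4354 to 4708, 2476 for Impdh2 in place of 4660 to 5096, and 5006 for Phgdh in place of 12452 to 12741. With DMSO, line #3 was already lower for Ctps, at 4666 against 7209 to 7434, for Psat1, at 8801 against 11474 to 11700, and for Mthfd1, at 5427 against 7088 to 7410. Proliferation genes were lowest in line #3 as well, and their part in these values was not tested.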

How the results depend on the processing

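Over the alternatives, 20 to 25 members were lower and 3 or 4 higher, and 22 to 24 lower with 3 higher when a line was left out. The members' median log2 fold change lay between -1.05 and -0.80. Of 448 values for single members under an alternative, 421 kept their direction and their side of the threshold, 19 no longer passed, 4 passed newly and 4 changed sign. Without the replicate block, 20 members were lower (Ctps, Paics, Mthfd2 and Slc7a5 did not pass) and 20 genes of the other lists were higher in place of 32, and over all genes 2347 were lower and 2205 higher. With equal totals and with quantile normalization, Ctps, Paics and Mthfd2 did not pass and Slc3a2 did, and eBayes without trend lost the same 3 genes. No filter on low values lost Mthfd2, and median centring added Impdh1. Psph changed sign to -0.0156 with median centring, to -0.0013 without line #1 and to -0.0675 without line #5, and its values with a line left out ranged from -0.0675 to 0.173. Asns changed sign to 0.122 without line #3, and its values with a line left out ranged from -0.287 to 0.122. None of these passed the test. Summing Prps1 with its copy Prps1l3 moved its difference from Prps2 from -0.93 to -0.35. The cause of the other changes was not tested. Quantile normalization gave 4233 genes lower and 3779 higher over all genes, and median centring 4492 and 3848. With 1 library per line and treatment, differences between lines have no replicate, and reads shared with copies or opposite strands limit Prps1, Impdh2, Phgdh, Gart and Psph.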
